A study of Mus musculus with 16 samples.

Results

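The 9 genes described here carry or restrain the signal of insulin and insulin-like growth factor 1 (IGF1) from the cell surface to the step just above the kinase AKT. They are the receptors Igf1r and Insr, the docking proteins Irs1 and Irs2, the PI3-kinase subunits Pik3ca, Pik3cb and Pik3r1, and the kinase Pdpk1. The last is Grb10, an adaptor that inhibits the receptors. The 9 genes were chosen as a pathway, with earlier results of these data known, and all array probes whose RefSeq accession maps to one of them were taken. That gave 14 probes of 56605 on the array and 9 of 22911 named genes, and all 14 probes passed the filter on dim probes that left 13725 genes to test. Igf1r, Insr, Pik3cb, Pdpk1 and Grb10 had 2 probes each, while Irs1, Irs2, Pik3ca and Pik3r1 had 1 each.

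A bound ligand makes the receptor phosphorylate the IRS proteins on tyrosine, and these recruit PI3-kinase, a dimer of a catalytic and a regulatory subunit. The lipid it makes draws AKT and PDPK1, the kinase that phosphorylates AKT in its activation loop, to the membrane. In heart muscle this route is known for its role in growth, glucose uptake and survival, and active AKT is known to restrain FoxO transcription factors, which in other tissues raise transcription of Insr and Irs2.

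The hearts came from male C57Bl/6 mice that were all heterozygous for MerCreMer, a Cre recombinase that hydroxytamoxifen switches on, under the αMHC promoter of cardiomyocytes. The groups were AKT1 KO (both Akt1 alleles floxed), AKT2 KO (both Akt2 alleles floxed), AKT1+AKT2 DKO (both genes floxed, DKO below) and control (MerCreMer and no floxed allele), with 4 mice each. All 16 mice, controls included, received 500 µg hydroxytamoxifen daily on 5 days at the age of 3 months, and RNA of the heart apex was taken 21 days after induction, although the sample titles read "untreated". The recombinase acts in cardiomyocytes, so other cells of the apex should keep their Akt genes, and the RNA is a mixture of all of them.

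Each heart was measured on 1 Agilent array with 1 dye, and between 24400 and 30565 probes per array lay well above background. Levels below are log2 intensities relative to the 75th percentile of the array, so that a level of 0 equals that percentile, and the number of arrays limits their precision. The levels of 2 genes cannot be compared, since each probe has its own brightness. The 16 arrays lay on 2 slides, with 2 arrays of each group on each slide, and each group kept its own column of the slide, so that column and group cannot be told apart. Akt2 fell in AKT2 KO and DKO hearts (log2 change -2.37 and -2.0 on its brightest probe, limma adjusted p = 1.76e-09 and 4.29e-09 over all probes). Akt1 did not pass the test in AKT1 KO or DKO hearts (0.10 and -0.02 on its brightest probe, adjusted p = 0.999 and 0.896), but where its probes lie relative to the floxed exons is not given in the sources used here, so they do not check the label. The cardiomyocyte markers were bright in every group, with a summed intensity of 12 markers between 3270 and 5360 times the 75th percentile. On the first principal component DKO replicate 3 scored 78.6 and the other DKO arrays 42.5 to 47.8, and values without it are given where it matters.

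The sequences before the gene starts of Irs2 and Igf1r are shown because these 2 genes had the largest changes of the 9, and that of Irs1 because it is the paralogue of Irs2 that changed less. Each window holds 250 bases before and 50 bases after the RefSeq gene start (GRCm38.p6). For Irs2 it is chr8:11008880-11009179 on the minus strand, for Irs1 chr1:82291390-82291689 on the minus strand and for Igf1r chr7:67952007-67952306 on the plus strand. Capitals mark the insulin response core, CAAAACA or its reverse complement TGTTTTG, a short motif that FoxO factors are known to bind.
Irs2: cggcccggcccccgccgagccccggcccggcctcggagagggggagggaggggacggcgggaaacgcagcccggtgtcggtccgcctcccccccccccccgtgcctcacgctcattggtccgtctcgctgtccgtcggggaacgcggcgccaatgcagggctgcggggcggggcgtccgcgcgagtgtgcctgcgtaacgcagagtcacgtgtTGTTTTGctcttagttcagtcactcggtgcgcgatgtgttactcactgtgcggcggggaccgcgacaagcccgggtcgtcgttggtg
Irs1: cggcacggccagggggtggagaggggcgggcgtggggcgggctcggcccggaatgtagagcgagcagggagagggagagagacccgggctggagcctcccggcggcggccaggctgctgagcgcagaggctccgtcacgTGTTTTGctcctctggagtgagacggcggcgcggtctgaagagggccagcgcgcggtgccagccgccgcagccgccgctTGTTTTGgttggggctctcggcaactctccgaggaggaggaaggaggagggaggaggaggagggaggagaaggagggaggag
Igf1r: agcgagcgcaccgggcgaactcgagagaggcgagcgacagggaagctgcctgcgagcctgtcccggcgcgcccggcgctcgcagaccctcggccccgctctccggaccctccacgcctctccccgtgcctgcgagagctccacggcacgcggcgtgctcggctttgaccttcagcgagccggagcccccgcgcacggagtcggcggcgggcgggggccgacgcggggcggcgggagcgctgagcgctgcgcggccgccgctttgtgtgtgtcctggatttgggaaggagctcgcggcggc
RefSeq windows were found for 8 of the 9 genes, 11 windows in all, and Insr had none among them. The insulin response core was searched on both strands and stood in 2 of the 11 windows, once in that of Irs2 (37 bases before the start) and at 2 places in that of Irs1 (the first 111 bases before the start). Of all 32851 windows of the same length 6.28% held it. The FoxO-binding element GTAAACA, of the same length, was searched with its reverse complement TGTTTAC. It stood in 0 of the 11 windows and in 3.65% of all windows, and neither motif contains the other. A match describes the letters and does not show a bound site.

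In DKO hearts 6 of the 9 genes differed from control hearts at a limma adjusted p under 0.05, 5 higher and 1 lower. The share among all genes tested was 45.6%, with 24.4% higher and 21.2% lower, so the count of 6 of 9 alone does not set these genes apart. Irs2 and Igf1r were more than 4-fold higher, Insr and Pik3cb about doubled, Pdpk1 rose by 0.68 on the log2 scale and Pik3r1 fell. The median log2 change of the 9 genes was 0.68, and that of all genes 0.02. Neither single knockout changed any of the 9 genes beyond that threshold. The 4 DKO and 4 control arrays did not overlap in 7 of the 9 genes (44.4% of all genes).

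**Figure D1:**
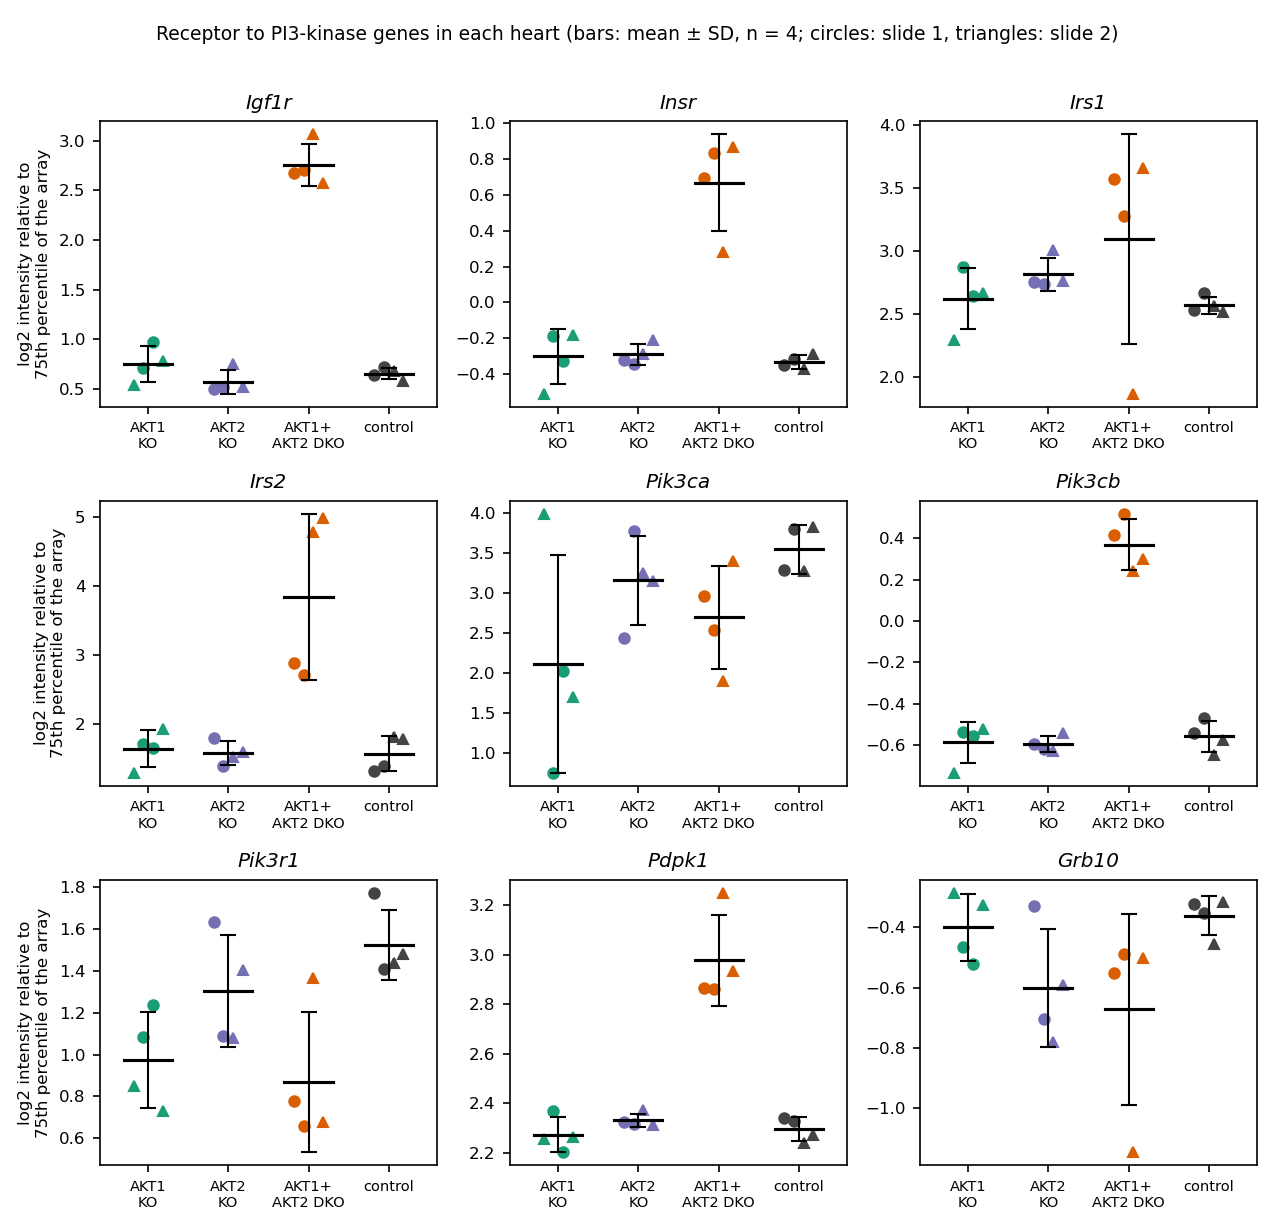
Level of each of the 9 genes in each heart (vertical axis, log2 intensity relative to the 75th percentile of the array) for AKT1 KO, AKT2 KO, DKO and control hearts. Points are single arrays, circles for slide 1 and triangles for slide 2, and the black bars give mean ± SD (n = 4). For Igf1r, Insr, Pik3cb and Pdpk1 the 4 DKO points lie above all other points, and for Irs2 they also lie above all others but in 2 pairs by slide.

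Igf1r encodes the receptor tyrosine kinase for IGF1. Its level was 0.54, 0.71, 0.97 and 0.78 in AKT1 KO hearts, 0.50, 0.52, 0.75 and 0.52 in AKT2 KO hearts, 2.68, 2.71, 3.07 and 2.58 in DKO hearts, and 0.64, 0.72, 0.68 and 0.58 in control hearts. The DKO hearts were above all 12 others, while the other 3 groups overlapped one another. The mean was 2.76 ± 0.21 in DKO hearts and 0.66 ± 0.06 in control hearts (SD, n = 4 each), a log2 change of 2.10 ± 0.11 (SE), or 4.29-fold (limma adjusted p = 8.86e-09). By size this was the change of rank 169 among 13725 genes. The change was 0.09 in AKT1 KO hearts (95% confidence interval -0.14 to 0.33) and -0.09 in AKT2 KO hearts (-0.32 to 0.15), so both intervals lie far below the DKO change. The dimmer of its 2 probes averaged 1.32 in DKO hearts and -0.17 in control hearts, a smaller change of 1.48 ± 0.08 (2.79-fold, adjusted p = 1.22e-08 over probes, of which 40% were called). Igf1r lies on chromosome 7, as Akt2 does.

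Insr encodes the insulin receptor. Its level was -0.51, -0.19, -0.33 and -0.18 in AKT1 KO hearts, -0.32, -0.35, -0.29 and -0.21 in AKT2 KO hearts, 0.69, 0.83, 0.28 and 0.87 in DKO hearts, and -0.35, -0.32, -0.37 and -0.29 in control hearts. All 4 DKO hearts lay above the 12 others, with replicate 3 the lowest of them, and the other 3 groups overlapped. The change in DKO hearts was 1.0 ± 0.11 (2.0-fold, limma adjusted p = 8.24e-06), and the second probe gave 0.99 ± 0.12. Without DKO replicate 3 it was 1.13. Changes in AKT1 KO and AKT2 KO hearts were 0.03 and 0.04.

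Both receptors rose in DKO hearts, and Igf1r by more than Insr. Neither group of single-knockout hearts differed from the control hearts in either receptor beyond its spread.

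Irs2 encodes a docking protein that insulin and IGF1 receptors phosphorylate. Its level was 1.30, 1.72, 1.65 and 1.93 in AKT1 KO hearts, 1.81, 1.40, 1.53 and 1.60 in AKT2 KO hearts, 2.89, 2.71, 4.77 and 4.99 in DKO hearts, and 1.32, 1.39, 1.81 and 1.79 in control hearts. The DKO hearts were above all others, and they formed 2 pairs. DKO replicates 1 and 2, on slide 1, averaged 2.80, and replicates 3 and 4, on slide 2, averaged 4.88, while the control hearts averaged 1.36 on slide 1 and 1.80 on slide 2. The DKO change was 2.26 ± 0.41 over all arrays (4.79-fold, limma adjusted p = 0.000462), 1.44 within slide 1 (adjusted p = 0.000854) and 3.08 within slide 2 (adjusted p = 0.00132). The rise thus held on both slides, with a size that differed between them, and why the slides differ was not tested. Without DKO replicate 3 the change was 1.95. Over all arrays Irs2 had the largest change of the 9 genes and rank 142 among all genes by size, measured with 1 probe. It came below Igf1r without DKO replicate 3 (1.95 for Irs2 and 2.0 for Igf1r) or 4 (1.88 and 2.16), with array weights (1.62 and 2.02) and within slide 1 (1.44 and 2.01). Changes in AKT1 KO and AKT2 KO hearts were 0.07 and 0.01, with intervals that reach 0.95 and 0.89. These intervals use a spread shared by all groups. The SD of Irs2 was 1.21 in DKO hearts, 0.263 in AKT1 KO hearts, 0.168 in AKT2 KO hearts and 0.256 in control hearts.

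Irs1, the paralogue of Irs2, had levels of 2.29, 2.87, 2.64 and 2.67 in AKT1 KO hearts, 2.75, 2.74, 3.01 and 2.76 in AKT2 KO hearts, 3.57, 3.28, 1.86 and 3.66 in DKO hearts, and 2.53, 2.66, 2.56 and 2.51 in control hearts. DKO replicates 1, 2 and 4 were above every other heart, and replicate 3 was below every other heart. Over all 4 the change was 0.53 ± 0.29 (1.44-fold, limma adjusted p = 0.149), so Irs1 was not called. Without DKO replicate 3 it was 0.94 (adjusted p = 3.75e-05), and within slide 1, which does not hold that array, 0.83 (adjusted p = 0.0037). The call for Irs1 therefore rests on 1 array. In AKT2 KO hearts all 4 arrays were above all 4 control arrays (7.62% of all genes had no overlap there). The change of 0.25 did not pass the test (adjusted p = 1), which uses a spread shared by all groups. The SD of Irs1 was 0.835 in DKO hearts, 0.131 in AKT2 KO hearts and 0.0669 in control hearts. That p therefore also carries the spread of the DKO hearts.

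Grb10 encodes an adaptor that binds the activated insulin and IGF1 receptors and inhibits them. Its level was -0.29, -0.46, -0.52 and -0.33 in AKT1 KO hearts, -0.33, -0.70, -0.78 and -0.59 in AKT2 KO hearts, -0.55, -0.49, -1.15 and -0.50 in DKO hearts, and -0.32, -0.35, -0.46 and -0.32 in control hearts. The DKO hearts were all below the control hearts but overlapped both single knockouts, and DKO replicate 3 was far below the rest. The DKO change of -0.31 ± 0.14 did not pass the test (limma adjusted p = 0.0751). It was -0.15 without DKO replicate 3 (adjusted p = 0.192). In 3 other fits limma called it: with normexp background correction (adjusted p = 0.04), with the mean of its probes (a change of -0.57, adjusted p = 0.0285) and with the replicate number as a block (adjusted p = 0.0293). The dimmer probe gave -0.82 ± 0.39 (adjusted p = 0.107 over probes) and lay above background on 2 of the 4 DKO arrays.

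**Figure D2:**
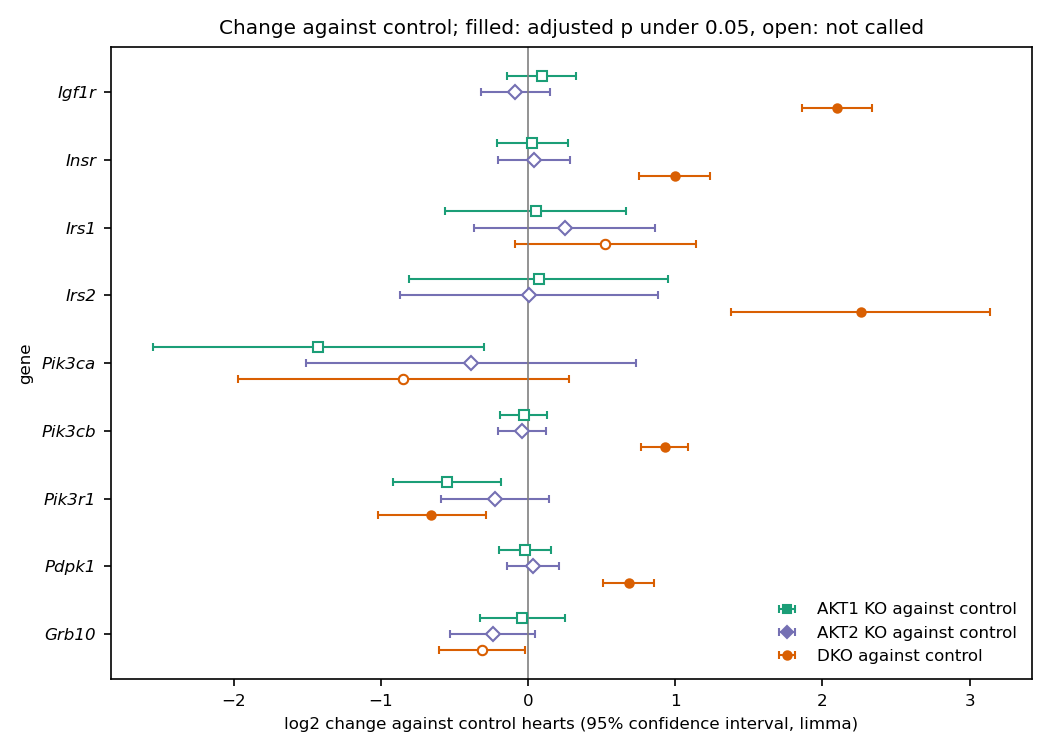
Log2 change of each gene against control hearts (horizontal axis) in AKT1 KO, AKT2 KO and DKO hearts, with the 95% confidence interval of the limma fit. Filled symbols passed an adjusted p of 0.05, which 6 genes did in DKO hearts and none in the single knockouts. The intervals of Irs1, Irs2 and Pik3ca are the widest.

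Pik3cb encodes p110β, a catalytic subunit of PI3-kinase. Its level was -0.74, -0.54, -0.56 and -0.52 in AKT1 KO hearts, -0.60, -0.62, -0.63 and -0.54 in AKT2 KO hearts, 0.42, 0.52, 0.24 and 0.30 in DKO hearts, and -0.54, -0.47, -0.65 and -0.58 in control hearts. The 4 DKO hearts were above all others by a margin wider than the spread within any group. The change was 0.93 ± 0.08 (1.90-fold, limma adjusted p = 4.36e-07), and the second probe, above background on 15 of 16 arrays, gave 0.92 ± 0.15. Changes in AKT1 KO and AKT2 KO hearts were -0.03 and -0.04.

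Pik3ca encodes p110α, the catalytic subunit that acts most directly behind the insulin receptor. Its 1 probe varied widely between mice, at 3.99, 0.75, 2.02 and 1.70 in AKT1 KO hearts, 2.43, 3.78, 3.25 and 3.15 in AKT2 KO hearts, 2.95, 2.53, 1.89 and 3.40 in DKO hearts, and 3.29, 3.79, 3.26 and 3.81 in control hearts. In AKT1 KO hearts 3 arrays were below every control array and 1 was above all of them. The change there was -1.43 ± 0.53 (limma adjusted p = 0.434). Without AKT1 KO replicate 1 it was -2.05 (adjusted p = 0.0234), so leaving out 1 array changed the call. It was also called with array weights (limma adjusted p = 0.00154). In DKO hearts the change of -0.85 ± 0.53 did not pass the test (adjusted p = 0.204). The catalytic subunits thus had changes of opposite sign in DKO hearts, of which that of Pik3cb passed the test.

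Pik3r1 encodes p85α and its shorter forms, the regulatory subunits that bind the IRS proteins. Its level was 0.85, 1.09, 1.24 and 0.73 in AKT1 KO hearts, 1.64, 1.09, 1.08 and 1.41 in AKT2 KO hearts, 0.78, 0.66, 1.37 and 0.68 in DKO hearts, and 1.77, 1.41, 1.44 and 1.48 in control hearts. DKO and AKT1 KO hearts were all below the control hearts, AKT2 KO hearts overlapped both, and DKO replicate 3 was the highest DKO heart, just under the lowest control. The DKO change was -0.66 ± 0.17 (1.58-fold, limma adjusted p = 0.0063), -0.82 without DKO replicate 3 (adjusted p = 0.000439), -0.88 within slide 1 (adjusted p = 0.0148) and -0.44 within slide 2, where it did not pass (adjusted p = 0.235). In AKT1 KO hearts the change was -0.55 ± 0.17, with an unadjusted p = 0.00629 in limma and an adjusted p = 0.277. Among the alternatives it was called only with array weights (limma adjusted p = 0.0103). Of all genes 9.19% had no overlap between the 4 AKT1 KO and 4 control arrays. DKO and AKT1 KO hearts differed by -0.11 (95% confidence interval -0.48 to 0.26).

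Pdpk1 encodes the kinase that phosphorylates AKT in its activation loop. Its level was 2.25, 2.37, 2.20 and 2.26 in AKT1 KO hearts, 2.32, 2.32, 2.37 and 2.31 in AKT2 KO hearts, 2.86, 2.86, 3.25 and 2.93 in DKO hearts, and 2.34, 2.33, 2.24 and 2.27 in control hearts. All 4 DKO hearts were above the 12 others, which stayed within a narrow range. The change was 0.68 ± 0.08 (1.61-fold, limma adjusted p = 1.45e-05), and 0.59 without DKO replicate 3. The second probe, annotated to another transcript accession of the gene, gave 0.47 ± 0.10 (adjusted p = 0.00207 over probes). Changes in AKT1 KO and AKT2 KO hearts were -0.02 and 0.04.

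**Figure D3:**
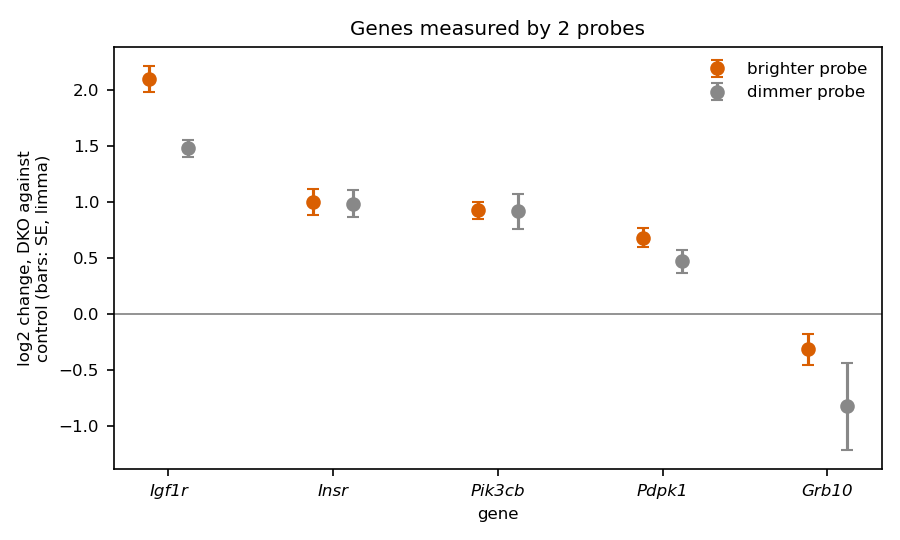
Log2 change of DKO against control hearts for the 5 genes with 2 probes (vertical axis; bars give the SE of the limma fit over all probes). The orange point of each pair is the brighter probe, used for the gene, and the grey point the dimmer one. Both probes gave the same sign for each gene, with changes of 2.10 and 1.48 for Igf1r as the widest gap among the 4 genes that were called.

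In AKT1 KO hearts 0 of the 9 genes were called by limma, against 0.794% of all genes, and 2 (Pik3r1 and Pik3ca) had an unadjusted p under 0.05. In AKT2 KO hearts 0 of the 9 were called, against 0.131%, and 0 had an unadjusted p under 0.05. That last count depended on the fit. It was 3 with array weights, 2 with only the groups compared and 2 without DKO replicate 3. How many of all genes had an unadjusted p under 0.05 was not counted, so these unadjusted counts do not set the 9 genes apart. With so few calls over all genes, 0 of 9 does not set these genes apart, and the confidence intervals say more. For Insr, Pik3cb and Pdpk1 the upper bounds in both single knockouts were 0.28 or less, below the lower bounds in DKO hearts of 0.76, 0.77 and 0.51. The 3 comparisons share the 4 control arrays and a spread estimated over all groups. The median SD of a gene was 0.248 in DKO hearts, 0.162 in AKT1 KO hearts, 0.114 in AKT2 KO hearts and 0.0901 in control hearts. The p-values and intervals of the single knockouts therefore also carry the spread of the DKO hearts.

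The genes that rose in DKO hearts also differed between DKO and each single knockout. Against AKT1 KO hearts 5 of the 9 genes were called, all higher in DKO hearts (47% of all genes called, 26.7% higher), and against AKT2 KO hearts the same 5, Igf1r, Insr, Irs2, Pik3cb and Pdpk1, were called (42.1%, 23.5% higher). Igf1r was 2.01 higher in DKO than in AKT1 KO hearts and 2.19 higher than in AKT2 KO hearts. The call of Insr against AKT2 KO hearts ended within slide 2 (0.82, limma adjusted p = 0.0538). Pik3r1 had a log2 change of -0.43 in DKO against AKT2 KO hearts (limma adjusted p = 0.0561) and was called under 8 of 31 alternatives, among them array weights (adjusted p = 0.00913), within slide 1 (-0.65, adjusted p = 0.0455) and without DKO replicate 3 (-0.60, adjusted p = 0.00457). Between AKT2 KO and AKT1 KO hearts 0 of the 9 were called by limma, against 0.896% of all genes. Of the 9, 0 had an unadjusted p under 0.05, a share that was not counted over all genes. With array weights 4 did, and without DKO replicate 3 it was 2.

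Whether the DKO change exceeds the sum of the 2 single changes was tested as the departure from additivity, the DKO change minus the changes of both single knockouts. The same 5 genes departed upwards (26% of all genes called, 15.9% higher), by 2.09 ± 0.16 for Igf1r (limma adjusted p = 1.25e-06), 2.18 ± 0.58 for Irs2 (0.0131), 0.99 ± 0.11 for Pik3cb (2.37e-05), 0.93 ± 0.16 for Insr (0.000912) and 0.67 ± 0.12 for Pdpk1 (0.000962). Since the single knockouts moved these genes by at most 0.09, the departures nearly equal the DKO changes. Within slide 2, with 2 arrays per group, 2 of the 9 were called for it, against 1.37% of all genes. The departure of Pik3r1 was 0.12 (95% confidence interval -0.41 to 0.64) and did not pass the test (limma adjusted p = 0.764).

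**Figure D4:**
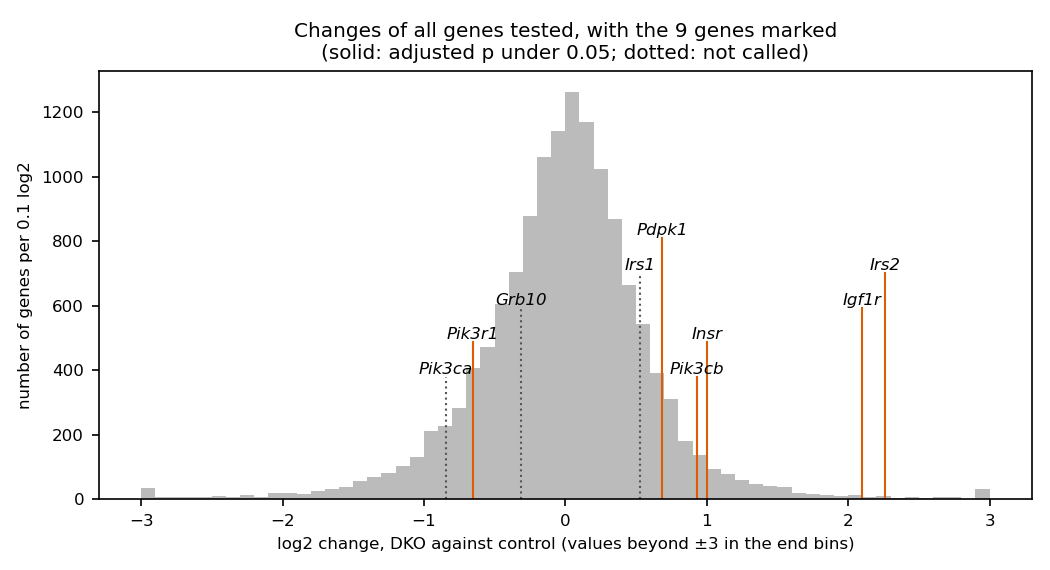
Number of genes (vertical axis) by log2 change of DKO against control hearts (horizontal axis, in steps of 0.1) over all genes tested. Vertical lines mark the 9 genes, solid where the adjusted p was under 0.05 and dotted where it was not. Igf1r at 2.10 and Irs2 at 2.26 lie in the thin upper tail, Grb10 at -0.31 within the bulk.

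Markers of cell types moved in DKO hearts as well. Of all genes tested 24.4% were higher and 21.2% lower there, and counts near these shares do not set a cell type apart. Of 12 cardiomyocyte markers 11 were lower, with a summed intensity of 3270 to 3940 in DKO hearts and 4360 to 4950 in control hearts, in multiples of the 75th percentile. Of 10 fibroblast markers 10 were higher, with sums of 500 to 560 in DKO hearts and 329 to 368 in control hearts, and 5 of 10 macrophage markers were higher, with sums of 52.3 to 70.9 in DKO hearts and 53.1 to 59.1 in control hearts. Among 10 endothelial markers 1 was higher and 1 lower, among 8 of smooth muscle and pericytes 3 were higher and 1 lower, and among 5 tested of Schwann and neural cells 3 were higher. Of 3 tested adipocyte markers 2 were higher and 1 lower, with sums of 0.666 to 1.36 in DKO hearts and 0.512 to 0.721 in control hearts. Of the tested markers of lymphocytes (5), mesothelial cells and epicardium (2) and atrium (3) limma called 0 in DKO hearts. Their sums were 1.7 to 2.71 in DKO hearts and 1.83 to 2.9 in control hearts for lymphocytes. For mesothelial cells and epicardium they were 1.02 to 2.3 in DKO hearts, with replicate 3 the highest, and 1.04 to 1.43 in control hearts. For atrium they were 1.52 to 4.76 in DKO hearts, with replicates 1 (4.76) and 3 (2.85) the highest, and 1.49 to 1.69 in control hearts. Their part in the changes of the 9 genes was not tested, and in bulk RNA a change in the number of cells of a type cannot be told apart from a change of RNA per cell. In the single knockouts 1 marker of all these lists was called by limma, the atrial gene Mybphl. Its level was -2.31 ± 1.1 in AKT1 KO hearts, where it was well above background on 4 of 4 arrays, and -5.92 ± 0.38 in control hearts (SD, n = 4 each), where it was not well above background on any array. Against the lowest signal well above background it was at least 3.23-fold higher in AKT1 KO hearts. The limma call (adjusted p = 0.00183) used the measured control values and does not test that bound. The call ended within slide 1 (adjusted p = 0.225).

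The wider pathway was followed in 7 lists of 112 other genes, of which 103 were tested. In DKO hearts 34 rose and 17 fell, 49.5% against 45.6% of all genes (24.4% higher and 21.2% lower). The counts of each list below stand beside these shares, and counts near them do not set a list apart. In AKT1 KO hearts 1 of the 103 was called by limma, 0.971% against 0.794% of all genes. Of the 103, 11 had an unadjusted p under 0.05 there, a share that was not counted over all genes. In AKT2 KO hearts 0 were called by limma, against 0.131% of all genes, and 0 had an unadjusted p under 0.05.

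**Figure D5:**
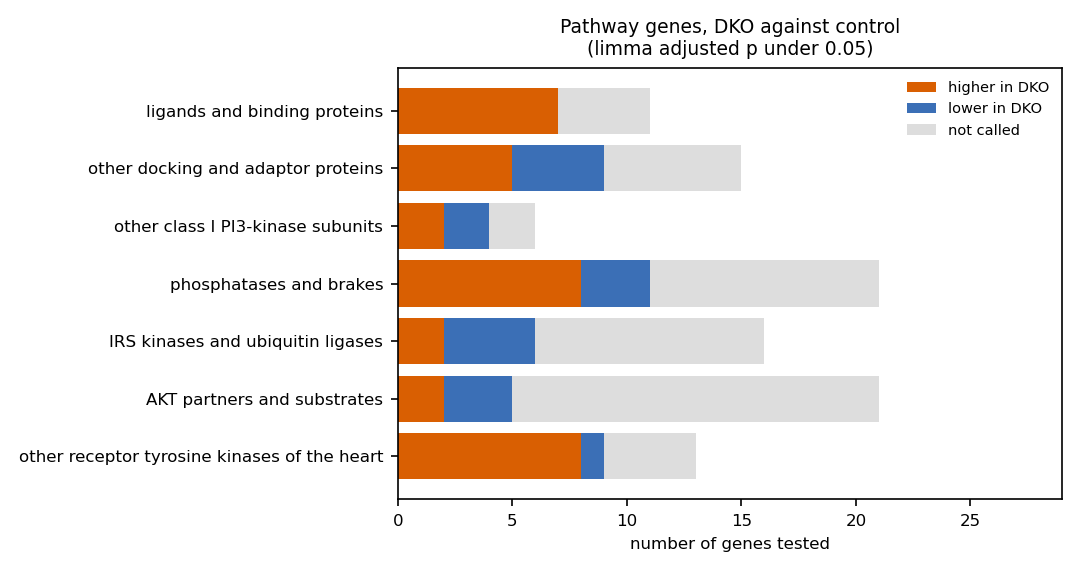
Number of tested genes in each of the 7 pathway lists (horizontal axis) that were higher (orange), lower (blue) or not called (grey) in DKO against control hearts at a limma adjusted p under 0.05. Ligands and binding proteins and other receptor tyrosine kinases are mostly orange, with 7 and 8 genes higher.

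Of 11 ligands and binding proteins 7 rose in DKO hearts and 0 fell, with a median change of 0.33. Pappa, a protease that cleaves IGF-binding proteins, rose by 1.23 (limma adjusted p = 2.78e-05), Igfbp4, the binding protein it cleaves, by 0.73 (1.11e-06), Igfbp7 by 0.64 (0.000162) and the ligand Igf1 itself by 0.63 (0.00174). Igf2r, a clearance receptor for IGF2, was the 1 list gene called in AKT1 KO hearts. It averaged 2.80 ± 0.12 in AKT1 KO hearts, 3.25 ± 0.04 in AKT2 KO hearts, 3.56 ± 0.12 in DKO hearts and 3.26 ± 0.10 in control hearts (SD, n = 4 each). It fell by 0.46 in AKT1 KO hearts (limma adjusted p = 0.011) and rose by 0.29 in DKO hearts (0.00827). The AKT1 KO call ended without AKT1 KO replicate 4, control replicate 1 or control replicate 2 (adjusted p between 0.0507 and 0.0587).

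Of 15 other docking and adaptor proteins 5 rose and 4 fell in DKO hearts. Dok1, a docking protein of receptor tyrosine kinases, rose by 1.07 (limma adjusted p = 0.000985), Gab2, a docking protein that binds PI3-kinase, by 0.63 (0.00012), and the adaptor Shc1 by 0.59 (0.00535). Grb14, the close relative of Grb10 that inhibits the insulin receptor, fell by 1.12 (0.000124), Sh2b1, an adaptor of the insulin receptor, by 0.46 (0.000504), and the adaptor Grb2 by 0.41 (0.00113). The other calls, Frs2 (0.29) and Sh2b2 (0.50) higher and Dok4 (-0.70) lower, were closer to the threshold (limma adjusted p = 0.0234, 0.0427 and 0.0409). That of Frs2 ended without DKO replicate 1 or 2 or control replicate 4 (adjusted p up to 0.0772). That of Dok4 ended without any control array, any AKT2 KO array or AKT1 KO replicate 2 (up to 0.0913). That of Sh2b2 ended without AKT1 KO replicate 2 or 4, AKT2 KO replicate 3, DKO replicate 2 or 3, or control replicate 1, 3 or 4 (up to 0.119).

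Of 6 other PI3-kinase genes 2 rose and 2 fell in DKO hearts. The regulatory subunits Pik3r3 and Pik3r2 fell by 0.56 and 0.35 (limma adjusted p = 0.00764 and 0.011), as Pik3r1 did. Pik3cd, the catalytic subunit best known from leukocytes, rose by 0.53 (0.0287), and Pik3ip1, a protein that inhibits PI3-kinase, by 0.51 (0.0292). The call of Pik3cd ended without DKO replicate 1 or 2 or control replicate 1, 2 or 4 (adjusted p up to 0.0826), and that of Pik3ip1 without DKO replicate 1, 2 or 4 or control replicate 1, 2 or 4 (up to 0.0921).

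Of 21 phosphatases and other brakes 8 rose and 3 fell in DKO hearts. Enpp1, an inhibitor of the insulin receptor, rose by 0.88 (limma adjusted p = 0.000598) and Trib3, a pseudokinase that binds AKT, by 0.60 (0.000896). Inppl1, the lipid phosphatase SHIP2, fell by 0.67 (0.000959) and Trib2 by 0.52 (0.000615). Of 16 IRS kinases and ubiquitin ligases 2 rose and 4 fell. Trim72, a muscle ubiquitin ligase of IRS1, fell by 1.16 (4.33e-05), Mapk8 and Mapk9, the kinases JNK1 and JNK2, by 0.71 and 0.29 (0.00945 and 0.0141), and Prkce by 0.42 (0.00954). Cul7, part of a ligase of IRS1, rose by 0.32 (0.00237), and Fbxo40 by 0.33 (0.0241), whose call ended without DKO replicate 4 or control replicate 1 or 3 (up to 0.0702).

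Of 21 AKT partners and substrates 2 rose and 3 fell in DKO hearts. Pfkfb2, the heart form of the enzyme that makes fructose 2,6-bisphosphate, fell by 1.71 (limma adjusted p = 0.00155), and Mlst8, a subunit of both mTOR complexes, by 0.43 (0.000474). The cell cycle inhibitor Cdkn1b rose by 0.38 (0.00502) and Rictor, the defining subunit of mTORC2, by 0.30 (0.019). The call of Rictor ended without DKO replicate 2 or control replicate 4 (0.0512 and 0.0701). Foxo3 fell by 0.35 (0.046), and its call ended without DKO replicate 1 or 2, AKT1 KO replicate 1 or 4, AKT2 KO replicate 4 or any control array (up to 0.143). Of 13 other receptor tyrosine kinases 8 rose and 1, Kdr, fell by 0.42 (0.0154). Ddr1, a collagen receptor, rose by 1.20 (2.12e-05), Pdgfra, which is also one of the fibroblast markers, by 0.69 (7.64e-05), Fgfr1 by 0.67 (0.000156) and Erbb2, a receptor of neuregulin signalling, by 0.62 (3.93e-05). The median change of that list was 0.62, close to the 0.68 of the 9 genes.

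For each of the 6 called genes the genes with the most similar profile were found as those with the smallest root mean square difference over the 16 arrays, after each gene was centred on its control mean. Closest to Pdpk1 were Mak16, Gmfb and Slc35b1 (differences of 0.06 each on the log2 scale). Closest to Pik3cb were Wtip (0.08), Itgb5 (0.08) and Ubl4a (0.09), and Wtip (0.12) was also among the 3 closest to Insr, with Tmed3 (0.11) and Zpr1 (0.12). Igf1r had Otulin (0.21), Tmbim1 (0.22) and Mafk (0.24) nearest. Irs2 had no profile as close, the nearest being Arid5a (0.29), Egr2 (0.33) and Slc38a2 (0.41). Pik3r1 was nearest to Abracl (0.17), Ablim1 (0.17) and Lgals1 (0.21), which all fell in DKO hearts. All the genes near the 5 that rose had DKO changes between 0.67 and 2.29. The DKO arrays were among the 16 used to find the nearest genes, so a shared direction in DKO hearts followed from the choice. The differences were not scaled to the spread of each gene.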

How the data were processed

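Total RNA (100 ng) of the apex of 16 hearts was hybridised to 1-colour Agilent arrays. Per the file headers, the deposited scanner files hold the intensity of each spot, background-subtracted by Agilent Feature Extraction 12.0.3.1. The authors' deposited values are on a log2 scale. They matched quantile-normalized intensity centred on each probe's median (correlation 0.999976 to 0.999999 per array), and served as an alternative.

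The log2 intensity of each array was reduced by its 75th percentile (492.1 to 809.4). Kept were probes that 1 group or more showed well above background on each of its 4 arrays, and the brightest kept probe stood for a gene. Accessions were named through RefSeq (GRCm38.p6), and 23611 of 56605 probes had no name. A limma 3.58.1 model of the 4 group means over 16 arrays (R 4.3.3, data.table version 1.17.8) was adjusted by Benjamini-Hochberg within each comparison at 0.05, after a test on simulated data. No sample column was left unused (0). Alternatives changed the background correction, the scaling, the filter, the probe rule, array weights, the prior, the arrays fitted or a block for slide, row or replicate number.

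The genes, lists and tests were chosen with earlier results of these data known. Named were the 9 genes, Akt1 and Akt2, up to 4 called genes with the smallest adjusted p per list and the 3 nearest profiles of each called gene. Shc1, Frs2, Sh2b2, Grb2, Dok4, Mapk9, Fbxo40, Foxo3 and Kdr were named after their values were seen, to complete counts of 5 or fewer, as was the marker Mybphl, and 1 further gene of those counts is not reported here. Nothing states whether mice were littermates.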

Additional observations from a re-analysis of the deposited data

Results flagged for a closer look

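Each of the 9 genes was checked in each of the 4 groups for 1 heart far from the other 3 of its group (by Dixon's gap test), which makes 36 checks, and chance alone gives about 1 such heart in 20 checks. It was met 5 times. Igf1r was high in AKT2 KO replicate 3, at a level of 0.75, and Irs1 was high in the same array, at 3.01. Pik3cb was low in AKT1 KO replicate 1, at -0.74. Pik3r1 was high in DKO replicate 3, at 1.37, and Grb10 was low in that array, at -1.15. DKO replicate 3 is also the array that stood apart over all genes and the one on which the call of Irs1 turned.

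The effect of losing both Akt genes differed from the sum of the single effects by limma in 5 of the 9 genes. Over all genes the share was 26%, with 15.9% upwards. The departures were 2.09 for Igf1r, 0.93 for Insr, 2.18 for Irs2, 0.99 for Pik3cb (0.995 before rounding) and 0.67 for Pdpk1, all upwards on the log2 scale.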

How the results depend on the processing

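In DKO against control hearts, Igf1r (1.79 to 2.19), Insr (0.87 to 1.13), Irs2 (1.44 to 3.08), Pik3cb (0.82 to 0.99) and Pdpk1 (0.53 to 0.84) kept direction and call under all 31 alternatives. Pik3r1 lost its call within slide 2. Grb10 was called with normexp (adjusted p = 0.04), its probes' mean (0.0285) and the replicate block (0.0293), and Irs1 with array weights (1.78e-05), within slide 1 and without DKO replicate 3. Each cause was not tested. Scaling moved the median of all genes by less than 0.1. Quantile normalization split the AKT2 KO calls over all genes into 10 higher and 13 lower, where the main scaling gave 10 and 8.

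Counts moved as follows. In AKT1 KO against control, 109 genes became 56 without a filter, 822 with array weights, 182 with only the groups compared, and 14 and 4 within slides 1 and 2; members became 2 with weights, and list genes 7 with weights, 2 with only the groups compared and 0 and 0 within the slides. In AKT2 KO against control, 18 became 93 with weights, 42 with only the groups compared, and 11 and 3 within the slides. In AKT2 KO against AKT1 KO, 123 became 81 without a filter, 849 with weights, and 46 and 8 within the slides, and members 1 with weights. For DKO against control, AKT1 KO and AKT2 KO, within slide 2 the genes were 2464, 2715 and 1903, and the list genes 15 against control; against AKT1 KO, only the groups compared gave 4195. Additivity gave 6155 with weights and 188 within slide 2, where members were 2. The fits within a slide use fewer arrays.

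Leaving out 1 array gave 54 to 291 genes in AKT1 KO (members 0 to 1, list genes 0 to 3), 14 to 37 in AKT2 KO (0 to 0 members and list genes), 5276 to 7020 in DKO (6 to 7, and 40 to 59), 5660 to 7365 against AKT1 KO (5 to 6), 4887 to 6514 against AKT2 KO (5 to 7), 84 to 328 between single knockouts (0 to 0) and 2890 to 4808 for additivity (5 to 6). The highs in AKT1 KO, AKT2 KO and between them (291, 37 and 328) came without DKO replicate 3. The AKT1 KO count was 56 without AKT1 KO replicate 4, and 56, 54, 63 and 64 without control replicates 1 to 4.

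The replicate block gave 79, 17 and 6340 genes against control and 0, 0 and 7 members. Deviations from the group mean correlated at -0.35 to 0.39 between same-numbered arrays. Between arrays of different groups the mean correlation was 0.156 on the same slide and -0.155 on different slides. Most same-numbered arrays share a slide, so these values cannot show whether the numbers pair the samples.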
